A study of Homo sapiens with 15 samples.

Results

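The response of A2058 cells to metformin was measured on 6 arrays, 3 of cells given 5 mM metformin for 8 hours and 3 of cells given water for the same time, out of 15 arrays in the series. The arrays were taken by their titles, so no measured value entered the choice, and they were compared as replicate pairs 1 to 3. A2058 is an established human malignant melanoma line, here grown in EMEM with fetal bovine serum. The other 9 arrays held cells of the same line treated for 8 hours with 50 µM phenformin, with 3 µM NP (named by this code in the labels) or with DMSO. Phenformin shared the water arrays as its vehicle, and NP had DMSO as its own. The data cover 1 cell line, 1 dose and 1 time, and the study's methods call the 3 samples of a group biological replicates. The labels do not say whether they were separate cultures, and the p-values measure the spread between these samples.

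Metformin and phenformin are biguanides, and both slow mitochondrial electron transport at complex I, the enzyme that oxidizes NADH and so keeps up the supply of NAD and of aspartate. Loss of amino acids or of mitochondrial function activates kinases that phosphorylate the translation factor eIF2, which lowers general protein synthesis while the mRNA of the transcription factor ATF4 is translated more, a program called the integrated stress response (ISR). ATF4 binds the promoters of genes for amino acid synthesis, amino acid import and tRNA charging, and of its own partner and feedback factors. A separate sensor, the MondoA-MLX pair of transcription factors, follows glucose phosphates and drives TXNIP and ARRDC4, whose products restrain glucose uptake.

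The levels below are log2 processed spot signals minus the array's 75th percentile, so 0 is the level that 25% of that array's probes exceed. They can be compared between arrays for 1 probe but not between probes. The share of probes well above background ran from 54.0% to 77.4% over the 6 arrays, and the water and metformin arrays of replicate 1 stood apart at 77.4% and 76.4%. Replicates 1 and 2 of both groups lay on 1 slide and replicate 3 on another, so each pair was compared within a slide. All 12 melanoma lineage markers, among them SOX10, PMEL and MITF, were above background on all 6 arrays. So were 2 of 6 keratinocyte markers (KRT14 and KRT10), 5 of 7 fibroblast markers, 3 of the 4 leukocyte markers on the array and 4 of 5 endothelial markers, while KRT5, KRT1, DSG3 and COL3A1 were above background on none. The summed level of the lineage markers lay between 6.97 and 7.18 in water and between 6.98 and 7.17 in metformin, that of the keratinocyte markers between 6.84 and 7.35 and between 7.01 and 7.28, and that of the fibroblast markers between 3.44 and 3.62 and between 3.58 and 3.70. The keratinocyte sum was nearly all KRT10 (6.826, 7.165 and 7.345 in water), as KRT14 lay between -0.47 and -0.11 there. These sums hold different probes and cannot be compared between lists. The summed level of the leukocyte markers lay between -0.46 and -0.06 in water and between -0.77 and 0.19 in metformin, and that of the endothelial markers between 0.16 and 0.34 and between 0.11 and 0.44. Their part in the results was not tested.

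Across the 26826 features tested, few differences passed the adjusted test. With limma's moderated test over all 15 arrays and the replicate number as a block, 2 features passed a Benjamini-Hochberg adjusted p of 0.05 together with a change of 1.5-fold, which was 0.00746% of those tested. They were NUPR1, which rose, and ARRDC4, which fell. At an unadjusted p of 0.05, 1269 features were higher in metformin (4.73%) and 1226 were lower (4.57%). The 1.5-fold limit left 123 higher features (0.459%) and 57 lower ones (0.212%), and quantile normalization in place of the 75th percentile turned that split to 135 higher and 151 lower. In 5953 features (22.2%) the metformin array was the higher one in all 3 pairs, and in 5418 (20.2%) it was the lower one. The 3 metformin arrays did not overlap the 3 water arrays in 1540 features (5.74%). The median difference over all features was 0.00 on the log2 scale, with an SD of 0.21.

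Changes of 1.5-fold were more frequent among dim features. With the features put in 4 bins by mean level, the dimmest 6707 held 77 of the 123 higher calls and 48 of the 57 lower calls, whereas the brightest 6707 held 11 and 1. Of the 123 higher calls, 47 carried a gene symbol, as did 16585 of the 26826 features tested. The list of ATF4 target genes, with 61 members tested, held 14 of the higher calls, which were 0.459% of all features. No member of that list was among the lower calls, which were 0.212% of all features. The differences of pairs 1 and 2 correlated at r = 0.28 across all features, those of pairs 1 and 3 at 0.15 and those of pairs 2 and 3 at 0.24, and over the 19569 features above background on all 15 arrays these values were 0.47, 0.28 and 0.49. These are correlations across genes, which are not independent replicates, and each pair shares its slide.

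**Figure D1:**
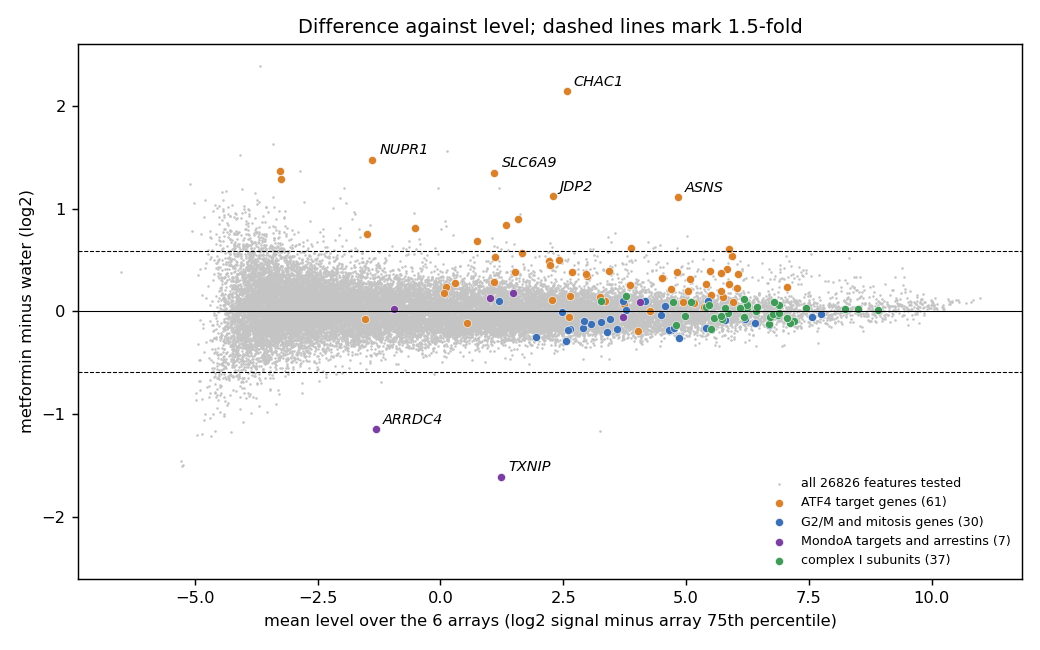
Metformin minus water (log2, vertical axis) against the mean level over the 6 arrays (horizontal axis) for all 26826 features, with members of 4 gene lists coloured. CHAC1, NUPR1, SLC6A9, JDP2 and ASNS stand above the cloud, ARRDC4 and TXNIP stand below it, and the 37 complex I subunits lie between -0.17 and 0.15.

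NUPR1 encodes a small stress-induced chromatin protein that lies downstream of ATF4. Its level was -2.20, -2.04 and -2.16 in the water arrays and -0.74, -0.84 and -0.40 in the metformin arrays. Every metformin array was above every water array, and the lowest gap within a pair was 1.21. NUPR1 rose by 1.48 on the log2 scale (SE 0.12, 2.78-fold, limma adjusted p = 0.049). In RNA from a whole culture, more RNA per cell and a larger share of cells that express the gene cannot be told apart, here and in all results below.

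ARRDC4 encodes an arrestin-like adaptor related to TXNIP. Its level was -0.89, -0.79 and -0.56 in water and -1.83, -2.16 and -1.69 in metformin, with no overlap between the groups. ARRDC4 fell by 1.15 on the log2 scale (SE 0.10, 2.21-fold lower, limma adjusted p = 0.049). Both genes sat just inside the threshold. Leaving out replicate 1, 2 or 3 gave adjusted p-values between 0.387 and 0.998 for NUPR1 and between 0.427 and 0.999 for ARRDC4, while the differences stayed between 1.33 and 1.61 and between -1.25 and -1.04. Neither passed without the replicate block, with the water and metformin arrays alone or with quantile normalization.

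CHAC1, a glutathione-degrading enzyme and a sensitive ISR gene, had the largest difference of any gene with a symbol that was above background on all 6 arrays. Its level was 1.56, 1.43 and 1.504 in water and 3.43, 3.64 and 3.84 in metformin and the groups did not overlap. The difference was 2.14 (SE 0.22, 4.40-fold, limma adjusted p = 0.116), and a second CHAC1 probe gave 2.14 as well. TXNIP, which binds thioredoxin and promotes removal of glucose transporters from the cell surface, had the largest negative difference of these genes. It read 1.86, 2.16 and 2.09 in water and 0.33, 0.46 and 0.49 in metformin. The groups did not overlap, and the difference was -1.61 (SE 0.19, 3.05-fold lower, limma adjusted p = 0.116). Both passed the adjusted threshold when only the 9 water, metformin and phenformin arrays were fitted, and NUPR1 and ARRDC4 then did not, at 0.102 and 0.115.

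**Figure D2:**
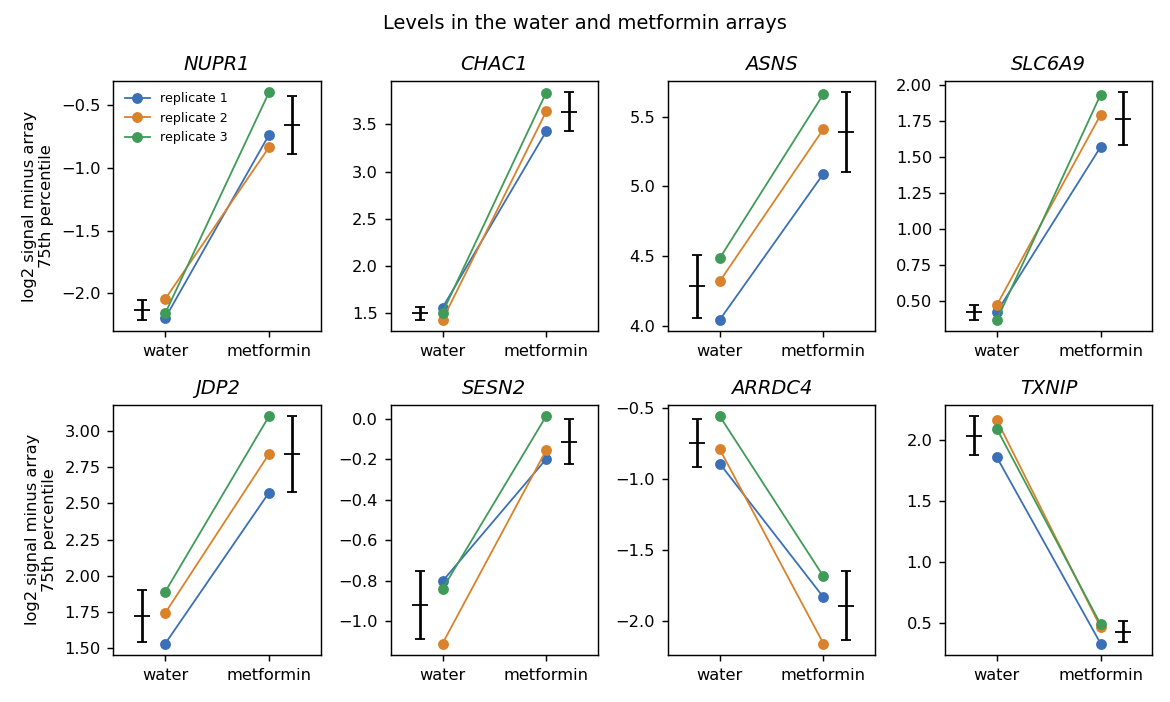
Level of 8 genes (log2 signal minus the array's 75th percentile, each panel on its own vertical axis) in the 3 water and 3 metformin arrays, with lines joining arrays of the same replicate number and black bars giving the mean and SD. In all 8 panels the 3 metformin arrays lie apart from the 3 water arrays, above them for NUPR1, CHAC1, ASNS, SLC6A9, JDP2 and SESN2 and below them for ARRDC4 and TXNIP.

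The list of ISR transcription factors and feedback genes had 21 members tested, of which 17 were also among the 61 ATF4 target genes tested. In this list 19 were higher in metformin, 15 of them at an unadjusted p of 0.05 and none lower at that p (71.4%, against 4.73% of all features), and 1 (NUPR1) passed the adjusted test. The list's median difference was 0.34, against 0.00 over all features, and its medians in pairs 1 to 3 were 0.37, 0.35 and 0.38. ATF4 itself was 7.98, 8.05 and 8.16 in water and 8.51, 8.598 and 8.65 in metformin, without overlap and with a difference of 0.52 (SE 0.11, limma adjusted p = 0.393). JDP2, a bZIP repressor of the AP-1 family, read 1.53, 1.74 and 1.89 in water and 2.57, 2.84 and 3.102 in metformin. Its difference of 1.12 (SE 0.13, limma adjusted p = 0.116) was nearly equal in the 3 pairs, between 1.04 and 1.21.

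No other factor of the ISR named here passed the adjusted test. ATF3, an early stress bZIP factor, differed by 0.84 (SE 0.15), with 3 dimmer probes at 0.69, 0.51 and 0.21, DDIT3, which encodes CHOP, by 0.69 (SE 0.14), and the pseudokinase TRIB3, an inhibitor of ATF4 and AKT, by 0.54 (SE 0.11). In each of these 3 genes all metformin arrays were above all water arrays. CEBPG, a dimer partner of ATF4, differed by 0.34 (SE 0.12) with overlapping groups, and ATF5, a related factor, by -0.11 (SE 0.09). CEBPG and ATF5 were singled out after their values were seen. SESN2, which restrains the growth kinase mTORC1 when leucine is short, read -0.80, -1.11 and -0.84 in water and -0.20, -0.15 and 0.01 in metformin, a difference of 0.81 (SE 0.10, limma adjusted p = 0.116). DDIT4, another inhibitor of mTORC1, differed by 0.37 (SE 0.08) and its groups overlapped.

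Promoters of these genes were read from RefSeq (build GRCh38.p14), as windows from 250 bases before to 50 bases after each annotated start, because ATF4 acts through a composite element with the core TGATGNAA. On either strand this core was found in 1270 of 35116 promoters (3.62%). By gene, 393 of the 12783 named genes tested that had a promoter entry held it (3.07%). Among the 61 ATF4 target genes tested, 48 had a promoter entry and 18 of them held the core in at least 1 (37.5%). This list was written from general knowledge of ATF4 targets, so its share is not independent evidence about the core. The ISR list had entries for 17 genes, of which 4 held it. A match is a description of the letters and not a measured binding site. The stretches of 80 bases shown here lie before the start, run 5′ to 3′ on the gene's strand and have the core in capitals for ASNS (chr7:97872433-97872512, minus strand), CHAC1 (chr15:40953226-40953305, plus strand), JDP2 (chr14:75427942-75428021, plus strand), ATF3 (chr1:212565180-212565259, plus strand), CEBPG (chr19:33374033-33374112, plus strand) and AARS1 (chr16:70289650-70289729, minus strand).
ASNS: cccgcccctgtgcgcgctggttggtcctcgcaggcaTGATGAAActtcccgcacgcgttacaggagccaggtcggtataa
CHAC1: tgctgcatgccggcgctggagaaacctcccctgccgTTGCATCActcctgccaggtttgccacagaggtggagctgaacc
JDP2: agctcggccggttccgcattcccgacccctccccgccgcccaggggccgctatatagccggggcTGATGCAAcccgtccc
ATF3: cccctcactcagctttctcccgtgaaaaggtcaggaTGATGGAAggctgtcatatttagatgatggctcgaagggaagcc
CEBPG: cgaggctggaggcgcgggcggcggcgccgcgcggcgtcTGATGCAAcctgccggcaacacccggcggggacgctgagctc
AARS1: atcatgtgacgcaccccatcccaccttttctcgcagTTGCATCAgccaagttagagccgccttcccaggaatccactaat

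In ASNS the core begins 68 bases before the start, in JDP2 16 and in CEBPG 42, each in the direction of transcription, and in ATF3 it begins 191 bases before the start. In CHAC1 and AARS1 it lies on the opposite strand, so the capitals show its reverse complement, 209 and 187 bases before the start. The core is in 1 of 3 promoter entries of JDP2 and in 1 of 2 of ASNS. NUPR1 and PSPH had no promoter entry. CHAC1, ASNS, JDP2, ATF3 and AARS1 had non-overlapping groups, whereas the groups of CEBPG overlapped. The genes shown were picked by hand from the 18 ATF4 target genes that held the core. In the whole list of 61, 52.5% had non-overlapping groups, against 5.74% of all features. A link between the core and the response was not tested. The single promoter entries of SLC6A9, SESN2 and CTH, which also had non-overlapping groups, held no match.

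The 61 ATF4 target genes tested included 56 that were higher in metformin, 51 of them in all 3 pairs (83.6%, against 22.2% of all features). At an unadjusted p of 0.05, 39 were higher (63.9%, against 4.73% of all features) and 1 was lower, and in 32 (52.5%, against 5.74% of all features) the metformin and water arrays did not overlap, each time with metformin higher. Of the 61, only NUPR1 passed the adjusted test. The list's median difference was 0.33, and it was 0.28, 0.34 and 0.40 in pairs 1, 2 and 3. The list was written with earlier results of these data known, so its counts describe these arrays and are not independent evidence. The single member lower at an unadjusted p was ALDH1L2, a mitochondrial folate enzyme, at -0.54 (SE 0.22), whose value in metformin replicate 1 was missing because the spot was marked as an outlier, and the sign was reversed in the authors' normalized table.

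**Figure D3:**
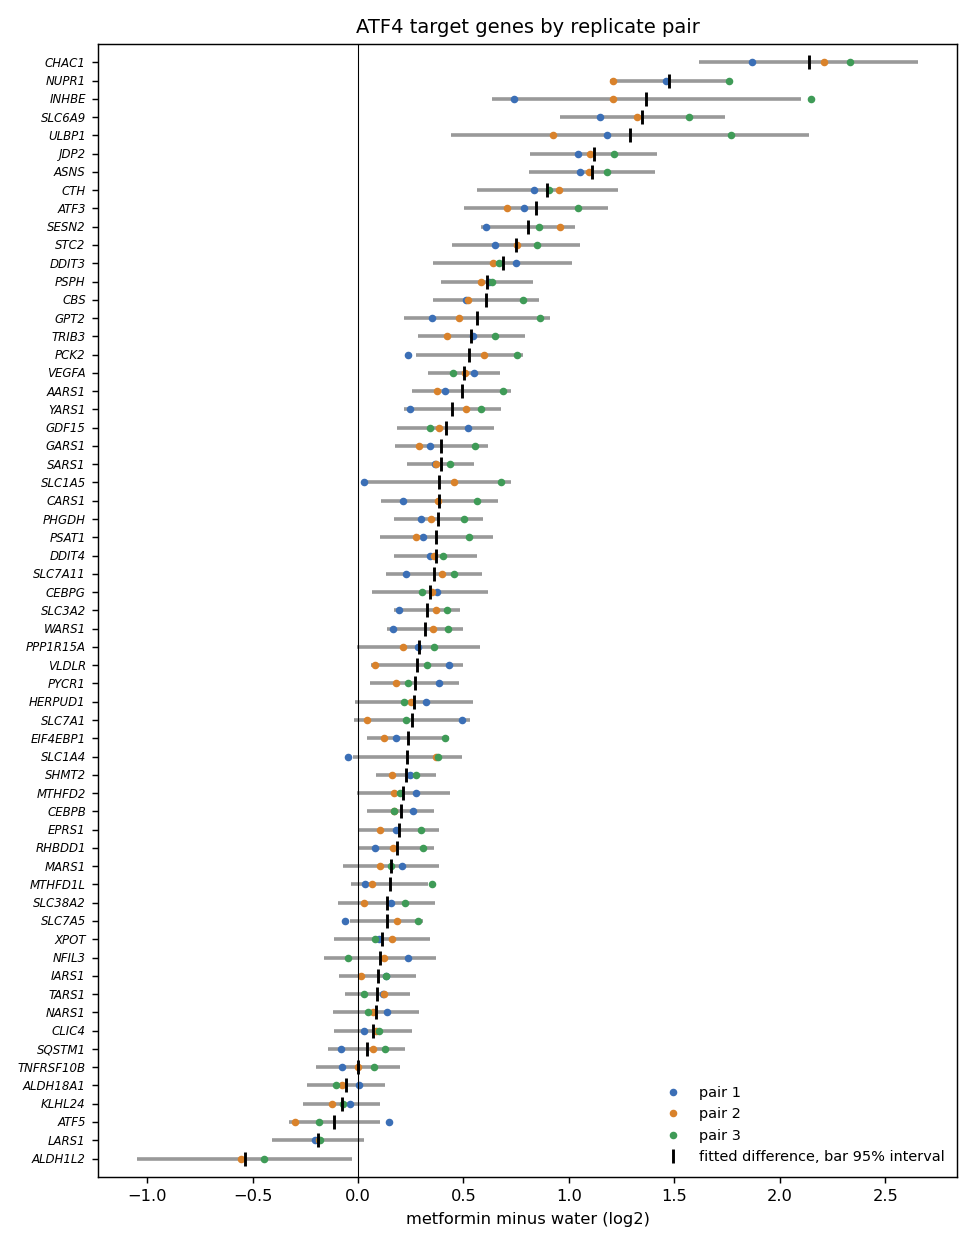
Metformin minus water (log2, horizontal axis) for each of the 61 ATF4 target genes tested, with points for the 3 replicate pairs, a tick for the fitted difference and a grey bar for its 95% interval. The points of 51 genes lie to the right of 0 in all 3 pairs, and CHAC1 at 2.14 and NUPR1 at 1.48 lie farthest to the right.

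Genes of amino acid synthesis and import made up much of this list. ASNS, the enzyme that makes asparagine from aspartate, read 4.04, 4.32 and 4.48 in water and 5.09, 5.41 and 5.66 in metformin. The groups did not overlap, and the difference was 1.11 (SE 0.13, 2.16-fold, limma adjusted p = 0.116). In serine synthesis, PSPH, the last enzyme of the pathway, differed by 0.61 (SE 0.09, limma adjusted p = 0.226), PHGDH, the first, by 0.38 (SE 0.09), and PSAT1, between them, by 0.37 (SE 0.12). The metformin arrays were above the water arrays for PSPH and PHGDH and overlapped them for PSAT1. In the transsulfuration route from homocysteine to cysteine, CTH differed by 0.90 (SE 0.14) and CBS by 0.61 (SE 0.11), both without overlap. PCK2, the mitochondrial enzyme that makes phosphoenolpyruvate, differed by 0.53 (SE 0.11), and a second PCK2 probe gave 0.23. GPT2, a mitochondrial alanine transaminase, differed by 0.56 (SE 0.15), and ASS1, which uses aspartate in arginine synthesis, by 0.25 (SE 0.08).

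Among 15 amino acid transporters, 10 were higher, and 4 were higher (26.7%, against 4.73% of all features) and 1 was lower (6.67%, against 4.57%) at an unadjusted p of 0.05. The list of ATF4 target genes holds 8 of the 15, among them these 4, which were thus counted there already. SLC6A9, a glycine transporter, read 0.42, 0.47 and 0.37 in water and 1.57, 1.80 and 1.94 in metformin, with a difference of 1.35 (SE 0.17, 2.54-fold, limma adjusted p = 0.125) that a second, dimmer probe gave as 0.89. The cystine importer SLC7A11 (0.36, SE 0.10) and the glutamine importer SLC1A5 (0.39, SE 0.15) had smaller differences, and neither passed the adjusted test.

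The enzymes that load tRNAs were listed by compartment. Of 19 cytosolic aminoacyl-tRNA synthetases, 16 were higher, 15 of them in all 3 pairs (78.9%, against 22.2% of all features), and 7 were higher at an unadjusted p of 0.05 (36.8%, against 4.73%), with a list median of 0.15. The list of ATF4 target genes holds 12 of the 19, among them all 7, which were thus counted there already. AARS1, for alanine, read 2.25, 1.95 and 1.71 in water and 2.66, 2.32 and 2.40 in metformin and differed by 0.49 (SE 0.10). YARS1, for tyrosine, differed by 0.45 (SE 0.10) and GARS1, for glycine, by 0.39 (SE 0.10). Of 17 mitochondrial synthetases, 9 were higher and 1 (MARS2, 0.21, SE 0.08) reached an unadjusted p of 0.05 (5.88%, against 4.73% of all features), and the list median was 0.03. The difference between the 2 lists was not tested.

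TXNIP and ARRDC4 belong to a list of 7 MondoA targets, arrestins and the sensor itself. In this list they were the only members lower at an unadjusted p of 0.05 (28.6%, against 4.57% of all features). The other 5, which include the MondoA gene MLXIP, its partner MLX and 3 further arrestins, lay between -0.05 and 0.18, and ARRDC1 reached an unadjusted p of 0.05 in the upward direction (0.18, SE 0.07). The carbohydrate response element bound by MondoA-MLX is built from a pair of E-box-like hexamers, and the promoter stretches of TXNIP (chr1:145996620-145996699, minus strand) and ARRDC4 (chr15:97960456-97960535, plus strand) are shown because both genes were lower. Capitals mark CACGAG, searched on both strands, in TXNIP and the palindrome CACGTG in ARRDC4.
TXNIP: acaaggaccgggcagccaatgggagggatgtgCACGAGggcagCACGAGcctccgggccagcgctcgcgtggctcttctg
ARRDC4: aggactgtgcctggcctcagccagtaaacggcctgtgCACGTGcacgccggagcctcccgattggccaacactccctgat

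The TXNIP stretch holds CACGAG in 2 copies that begin 88 and 77 bases before the start with 5 bases between them. It comes from 1 of 2 promoter entries of TXNIP, and the other held no CACGAG. In ARRDC4, CACGTG begins 210 bases before the start. CACGTG occurs in 7.26% and CACGAG in 6.78% of all promoters in the table, so single copies of either are common. CACGAG was searched after the values were seen. The TXNIP entries held no CACGTG, and the ARRDC4 entry held no CACGAG. A link between these hexamers and the response was not tested.

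Of 11 secreted stress signals tested, 4 were higher (36.4%, against 4.73% of all features) and 1 was lower (9.09%, against 4.57%) at an unadjusted p of 0.05. The 4 higher ones, STC2, VEGFA, GDF15 and INHBE, are also in the list of ATF4 target genes and were counted there. STC2, a secreted glycoprotein that limits IGF release, read -1.95, -1.81 and -1.87 in water and -1.30, -1.06 and -1.02 in metformin and differed by 0.75 (SE 0.13). VEGFA, the angiogenic growth factor, read 2.10, 2.18 and 2.19 in water and 2.65, 2.68 and 2.64 in metformin. Its difference was 0.50 (SE 0.07, limma adjusted p = 0.191), and its second probe gave 0.42. GDF15, a stress hormone that lowers appetite and is known to rise with metformin, differed by 0.42 (SE 0.10), and the lowest metformin array (5.96) was only just above the highest water array (5.86). INHBE, a subunit of activin E, differed by 1.37 (SE 0.32), but it was above background on 2 of 3 water arrays. FGF21, another hormone of mitochondrial stress, did not pass the filter on dim probes. CXCL8, which attracts neutrophils, was 3.34, 3.72 and 3.90 in water and 3.07, 3.24 and 3.26 in metformin, a difference of -0.46 (SE 0.13). ULBP1, a ligand of an activating receptor on natural killer cells, differed by 1.29 (SE 0.37) and was above background on 2 of 3 water arrays.

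Genes of the respiratory chain had differences near 0. Among 37 subunits of complex I, 20 were higher and 17 lower, none reached an unadjusted p of 0.05, and the list median was 0.01. The 38 subunits of complexes II to V gave 19 higher and 19 lower, also with none at that p and with a median of -0.000687. Of 13 regulators of mitochondrial biogenesis, 9 were lower, as were 13136 of all 26826 features, and the list median was -0.05. At an unadjusted p of 0.05, 1 was higher (7.69%, against 4.73% of all features) and 2 were lower (15.4%, against 4.57%). PPARGC1A, a coactivator of this program, differed by 0.07 (SE 0.11), and PPARGC1B by -0.18 (SE 0.07), though its second probe gave -0.01. The mitochondrial proteases LONP1 and AFG3L2 differed by 0.34 (SE 0.08) and 0.28 (SE 0.08) without overlap between the groups. AMPK, the energy sensor that biguanides activate, was represented by 11 genes of its subunits and upstream kinases with a median of -0.000562. PRKAA1, a catalytic subunit, differed by -0.27 (SE 0.11), but a second probe gave -0.01, and PRKAG3, a regulatory subunit, by 0.41 (SE 0.17). Of 10 genes for uptake and efflux of biguanides, 6 passed the filter and none reached an unadjusted p of 0.05.

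**Figure D4:**
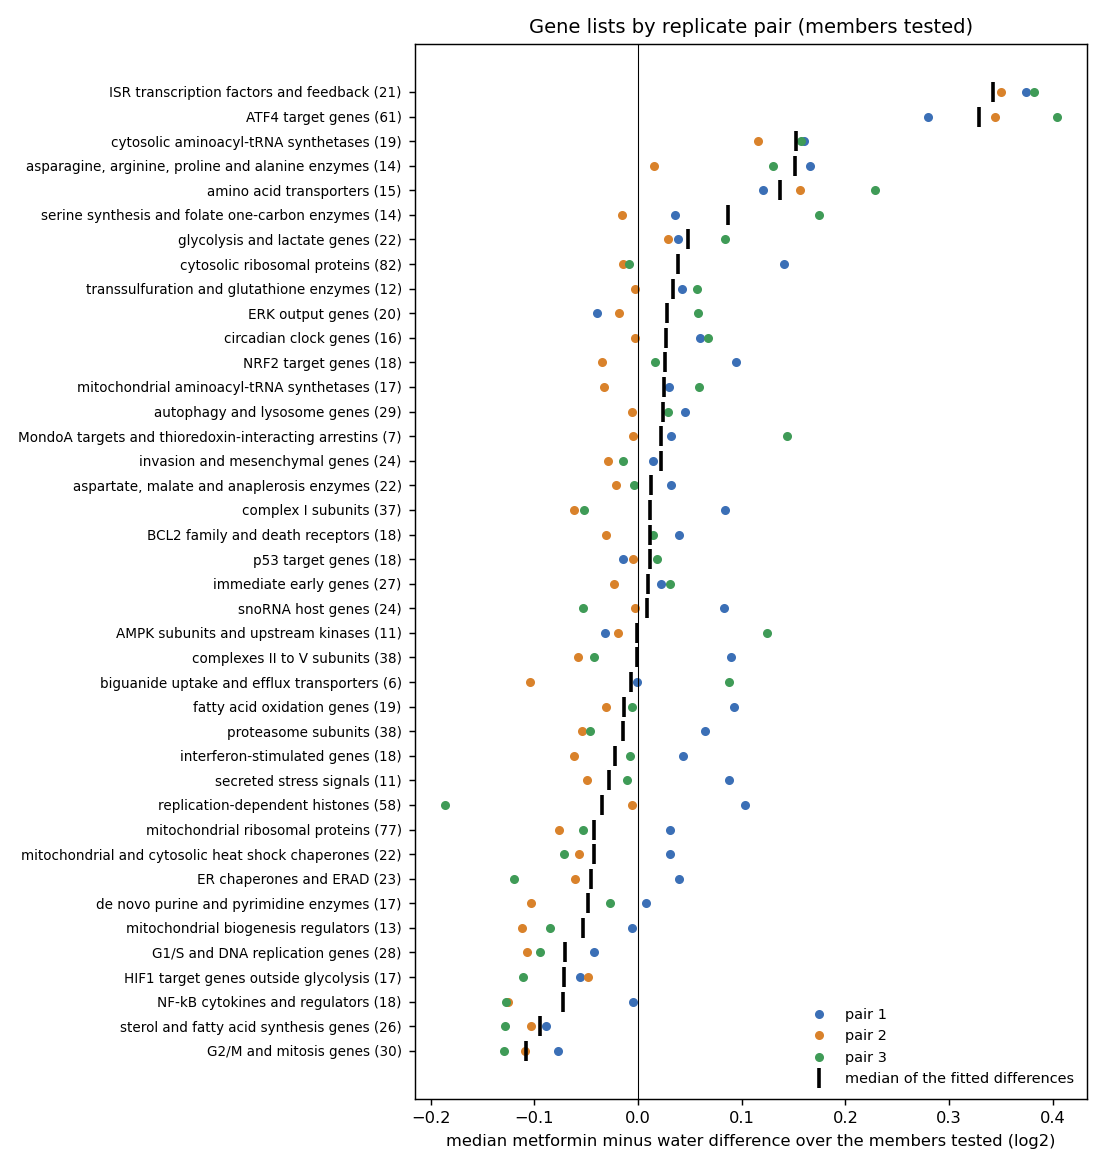
Median metformin minus water difference (log2, horizontal axis) over the members tested of 40 gene lists, with points for replicate pairs 1 to 3 and a black tick for the median of the fitted differences. The ISR and ATF4 lists stand to the right at 0.34 and 0.33, and the G2/M list is lowest at -0.11.

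Most genes of cell division were slightly lower. Of 30 genes of G2/M and mitosis, 24 were lower, 17 of them in all 3 pairs (56.7%, against 20.2% of all features), and 3 were lower at an unadjusted p of 0.05 (10.0%, against 4.57% of all features). The list median was -0.11, with pair medians of -0.08, -0.11 and -0.13. The 28 genes of G1/S and DNA replication gave 22 lower, 13 of them in all 3 pairs (46.4%, against 20.2% of all features). At an unadjusted p of 0.05, 5 were lower (17.9%, against 4.57%), and the list median was -0.07. MKI67, the proliferation antigen, read 2.77, 2.47 and 2.88 in water and 2.35, 2.25 and 2.66 in metformin, lower in metformin in each pair although the groups overlapped, with a difference of -0.29 (SE 0.07, limma adjusted p = 0.430). RRM2, a subunit of ribonucleotide reductase, differed by -0.38 (SE 0.10) and the cyclin CCNE2 by -0.34 (SE 0.11). The sterol and fatty acid synthesis list had 21 of 26 members lower, 6 of them at an unadjusted p of 0.05 (23.1%, against 4.57% of all features), and a median of -0.09. No member of any of these 3 lists passed the adjusted test.

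Growth and oncogene readouts had small differences. MYC differed by -0.24 (SE 0.10), and CCND1, encoding cyclin D1, by -0.05 (SE 0.08) with a sign that turned when replicate 1 was left out (0.05). MITF, the melanocyte lineage factor, differed by -0.16 (SE 0.14), but its dimmer probes gave -0.003 and 0.02. JUN, a subunit of AP-1, read 1.45, 1.62 and 1.88 in water and 1.01, 1.14 and 1.41 in metformin, a difference of -0.46 (SE 0.10) without overlap. TYR, the tyrosinase of melanin synthesis, differed by -0.44 (SE 0.13) with overlapping groups and was named after its values were seen. It was the 1 lineage marker of 12 at an unadjusted p of 0.05 (8.33%, against 4.57% of all features), and it was dim (mean -2.54 in water). Of these 12 markers 8 were lower and 4 higher, namely SOX10 (0.14), S100A1 (0.13), PMEL (0.12) and DCT (0.06). OCA2, a melanosome transporter, differed by -0.57 (SE 0.15), and it was among the 12 largest negative differences by the naming rule.

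The unfolded protein response in the endoplasmic reticulum shares ATF4 and DDIT3 with the ISR but also raises chaperones through other branches. Of 23 ER chaperone and ERAD genes, 16 were lower, with 1 higher (4.35%, against 4.73% of all features) and 3 lower (13.0%, against 4.57%) at an unadjusted p of 0.05 and a median of -0.05. HSPA5, the main ER chaperone, read 2.94, 3.22 and 3.45 in water and 2.88, 2.86 and 3.17 in metformin, a difference of -0.23 (SE 0.09) that held in all 3 pairs while the groups overlapped. XBP1, a factor of another branch, differed by 0.32 (SE 0.08) without overlap. The oxidative stress genes HMOX1 (-0.11, SE 0.09) and NQO1 (-0.08, SE 0.07) and the glucose transporter SLC2A1 (-0.08, SE 0.08) had intervals that included 0. PKM (0.27, SE 0.08) and ENO1 (0.17, SE 0.06), 2 of the 22 genes of glycolysis and lactate tested, were the ones at an unadjusted p of 0.05 (9.09%, against 4.73% of all features), and the list median was 0.05.

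Of the 40 lists, 5 had a median above 0.1 and 1 below -0.1, and the other 34 lay between. These 34 included the targets of p53 (median 0.01), NF-kB cytokines and regulators (-0.07), interferon-stimulated genes (-0.02), autophagy and lysosome genes (0.02), NRF2 target genes (0.03) and HIF1 target genes outside glycolysis (-0.07). BBC3, a death-promoting BCL2 family gene that both p53 and the ISR can raise, differed by 0.40 (SE 0.07, limma adjusted p = 0.343) without overlap. Other single genes with non-overlapping groups (5.74% of all features) were the carnitine palmitoyltransferase CPT1B (0.42, SE 0.08) and the clock gene PER1 (0.38, SE 0.09). Their relatives CPT2 (-0.20, SE 0.07) and PER2 (-0.22, SE 0.09) were lower. Of 19 fatty acid oxidation genes tested, 7 were higher and 12 lower (median -0.01). The 16 clock genes tested gave 9 higher and 7 lower (median 0.03). Replication-dependent histones (58 tested, median -0.03) and cytosolic ribosomal proteins (82 tested, median 0.04) have near-identical copies that a probe may not separate, so single members of these families are uncertain.

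Among the 12 largest positive differences by the naming rule, some lay outside these lists. APOL6, an interferon-inducible apolipoprotein L, read -0.59, -0.12 and -0.30 in water and 0.68, 0.45 and 0.49 in metformin, a difference of 0.88 (SE 0.18) without overlap. RPS6KA2, a kinase downstream of ERK, differed by 1.00 (SE 0.20), but its second probe gave 0.20 (SE 0.37). RET, a receptor tyrosine kinase, read -1.20, -2.30 and -3.16 in water and 0.24, -1.33 and -2.73 in metformin. In both groups its level was highest in replicate 1, the pair with the most probes above background, and the groups overlapped. Its difference was 0.95 (SE 0.37, limma adjusted p = 0.513).

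Stress chaperones, immediate early genes and lysosome genes gave mixed values. Of 22 mitochondrial and cytosolic heat shock chaperones, 8 were higher and 14 lower, with a median of -0.04. At an unadjusted p of 0.05, 3 were higher (13.6%, against 4.73% of all features) and 1 was lower (4.55%, against 4.57%). HSPH1, a cytosolic heat shock chaperone, differed by -0.33 (SE 0.11), and its second probe gave -0.34. Of 27 immediate early genes, 3 were higher and 3 lower at an unadjusted p of 0.05 (11.1% each, against 4.73% and 4.57% of all features). KLF4, a zinc finger factor of differentiation, differed by 0.39 (SE 0.15) without overlap, and the orphan nuclear receptor NR4A1 by 0.33 (SE 0.10) with overlapping groups. MDM2, which removes p53, differed by -0.27 (SE 0.09), but its other probes gave -0.03 and 0.07. CTSD, a lysosomal protease, differed by 0.23 (SE 0.06), and BIRC3, an inhibitor of apoptosis induced by NF-kB, by -0.36 (SE 0.10). None of these genes passed the adjusted test.

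EHF, an epithelial ETS factor, had the largest negative difference after TXNIP and ARRDC4 under the same rule, at -0.90 (SE 0.25). It was dim (mean -2.89 in water) and did not pass the adjusted test. Over the alternatives its difference ran from -1.13 to -0.156.

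Phenformin and NP were measured in the same series, at other doses, and their values for the leading genes are given side by side. The phenformin values share the water arrays with those of metformin, so the 2 sets are not independent. NUPR1 was higher by 1.48 with metformin, 1.58 with phenformin and 1.69 with NP against DMSO, and it passed the adjusted test in all 3 (0.049, 0.0245 and 0.0125). CHAC1 differed by 2.14, 2.40 and 1.83, with adjusted p-values of 0.116, 0.0245 and 0.0301. ASNS differed by 1.11, 1.5003 and 1.09, with 0.116, 0.0245 and 0.0282. ARRDC4 differed by -1.15, -1.12 and -0.69, with 0.049, 0.0245 and 0.056, and TXNIP by -1.61, -1.44 and -1.10, with 0.116, 0.11 and 0.0946. VEGFA differed by 0.50, 0.88 and 1.01, with 0.191, 0.0245 and 0.0125. The median of the ATF4 target genes was 0.33 with metformin, 0.44 with phenformin and 0.46 with NP, and that of the ISR list was 0.34, 0.52 and 0.60.

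**Figure D5:**
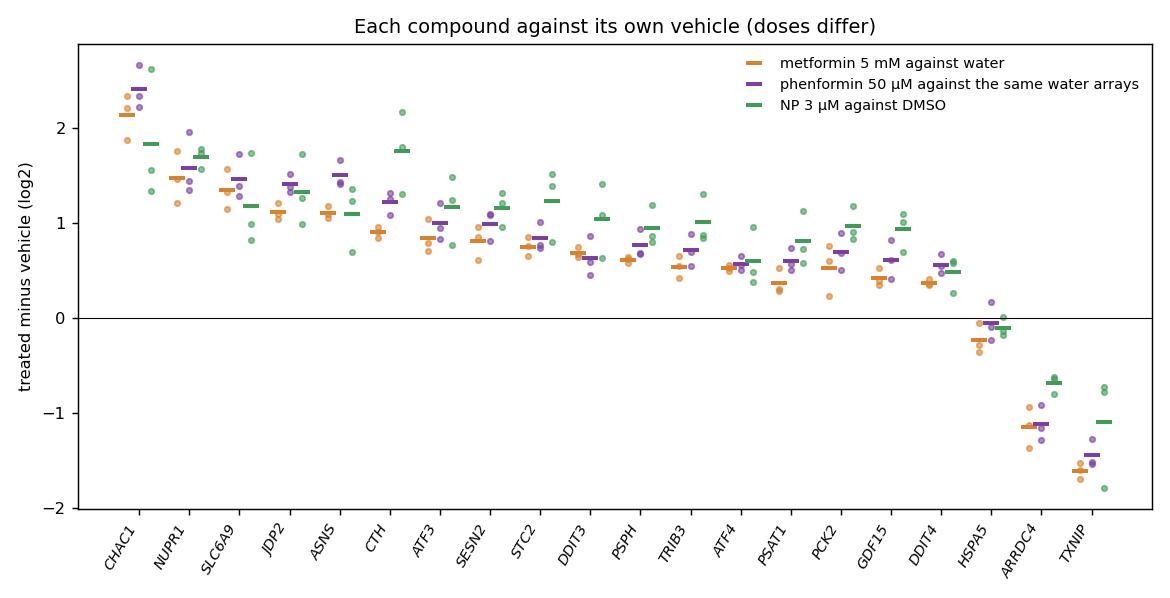
Treated minus vehicle difference (log2, vertical axis) of 20 genes for metformin and phenformin, both against the same 3 water arrays, and for NP against DMSO, with points for the 3 replicate pairs and bars for the fitted difference. All 3 compounds put NUPR1, CHAC1, ASNS and JDP2 above 0 and ARRDC4 and TXNIP below 0, at doses that differ.

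The conditions were also set against each other in the same fit, which compares these doses and not the compounds at matched exposure. Between 5 mM metformin and 50 µM phenformin, no feature passed the adjusted test (smallest adjusted p = 0.507), 2247 had an unadjusted p of 0.05 or less and 664 of these differed by 1.5-fold. Of those 664, 643 were higher in metformin, and 491 of the 643 were not above background on all 15 arrays. In such dim features the median difference was 0.285, whereas it was -0.012 in the others, beside the higher share of probes above background on the replicate 1 arrays of water and metformin. The part of that share in the result was not tested. With quantile normalization 238 were higher and 395 lower.

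Between the metformin and NP effects, each against its own vehicle, no feature passed the adjusted test either (smallest adjusted p = 0.463), with 2616 features at an unadjusted p of 0.05 and 672 of these 1.5-fold apart. These 2 effects came from different slides with different vehicles.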

How the data were processed

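Total RNA was labelled with Cy3 and hybridised to 1-colour Agilent arrays, 1 sample per array. Per the file headers, the authors made the scanner files with Feature Extraction 10.7.3.1 (the submitters' processing notes name version 9.1), and the deposited intensity of each spot is background-subtracted but not scaled between arrays. The authors also deposited a table of normalized log2 values, used here as an alternative. Its columns correlated with the log2 spot signals at 0.9922 to 0.9997, their medians ran from 4 to 5.157, 31.3% to 50.8% of their values sat at 4, and the methods say that signals were scaled to the 75th percentile, with no further centring stated.

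Control and outlier spots were left out, spots of 1 probe were averaged as log2 values, and values were set relative to each array's 75th percentile. A probe was kept if some group had it well above background on its 3 arrays (32914 of 58201), and the brightest probe stood for a gene, giving 26826 features (225 of 402390 values missing). Of 33080 probes with a RefSeq accession, 31104 were named through the RefSeq gene table. No spot was saturated, and the number of arrays limits the precision.

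Groups followed the labels, with water as the vehicle of both biguanides, although the methods' fold changes were taken against DMSO samples. limma 3.58.1 (R 4.3.3) was fitted to all 15 arrays with 5 groups and a block for each replicate number of each slide set (6 residual and 1.78 prior degrees of freedom). Tests were two-sided and adjusted by the Benjamini-Hochberg method across the 26826 features. Same-numbered water and metformin arrays deviated together from their group means (r = 0.856, 0.442 and 0.796), as did the other same-numbered pairs (0.217 to 0.648). Between arrays of unlike numbers the highest r was 0.13 for water and metformin. For DMSO and NP it was 0.289, near the 0.312 and 0.332 of their replicates 1 and 2. The numbers were taken to pair the samples throughout. The fit was also run on simulated arrays with independent noise and planted changes, which does not show how it performs for smaller changes.

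Genes were named if they passed the adjusted test, were among the 12 largest differences each way (with a symbol, an unadjusted p of 0.05 or less, 1 direction in all pairs and detection on all 6 arrays), were among the 3 largest of a list at that p and detection, or stood in a set of stress and metabolism genes. The members, lists and naming rule were chosen with earlier results of these data known, and the CACGAG motif after the values were seen. No set test was run. Single members of the sterol and fatty acid list and some other transcripts are not reported here. Alternatives were other blocks, fewer arrays, another background correction, other scalings, filters and probe summaries, the methods' paired t-test, each replicate left out and each slide alone.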

Additional observations from a re-analysis of the deposited data

How the results depend on the processing

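Of the 2 genes past the adjusted test, both stayed past it with the slide as the block (6 features in all), median centring, the authors' normalized table, the mean of a gene's probes (2 each), normexp background correction (19) and features above background on all 15 arrays (16). The 9 water, metformin and phenformin arrays gave 2 other genes, CHAC1 and TXNIP. No feature passed without a replicate block, with 1 replicate block across both sets of slides, with the water and metformin arrays only, with quantile normalization, without the filter on dim probes or with any 1 replicate left out (0 to 0); the numbers of features at an unadjusted p of 0.05 were then 399, 660, 4032, 2978, 2367 and 950 to 2471. The methods' paired t-test called 124 features at its unadjusted threshold with 1.5-fold and 0 after Benjamini-Hochberg adjustment.

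The 180 unadjusted calls with 1.5-fold became 89 without a replicate block, 119 with 1 replicate block across both sets of slides, 351 with the water and metformin arrays only, 28 with normexp, 286 with quantile normalization, 83 in the authors' table, 941 without the filter on dim probes and 64 above background on all 15 arrays; they ranged from 200 to 302 with 1 replicate left out (302 without replicate 1), and the t-test gave 0 after adjustment. The share of calls that were higher was 68.3%, and it was 47.2% with quantile normalization, 79.2% with the water and metformin arrays only, 89.3% with normexp, 81.9% in the authors' table, 81.2% above background on all 15 arrays and 85.5% with the t-test. The counts of features that differed between metformin and phenformin or NP stayed at 0 after adjustment in all alternatives run.

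Over 121 genes and 17 alternatives, 3 of 2044 differences changed sign, namely ALDH1L2 in the authors' table (0.0476) and CCND1 without replicate 1 (0.0526, against -0.128 without replicate 3) and on the slide of replicate 3 alone (0.112). With normexp, NUPR1 differed by 0.92 and ARRDC4 by -0.72. The adjusted p over the alternatives ran from 0.00203 to 1 for NUPR1 and from 0.00268 to 1 for ARRDC4. The medians of 40 lists moved by more than the SD between pairs in 41 of 680 values. The ATF4 list's median ran from 0.283 to 0.404 and the ISR list's from 0.269 to 0.382. Dim features have the widest spread, and a probe near background bounds a change only loosely. The causes of these shifts were not tested.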
